A study of Mus musculus with 16 samples.

Results

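Messenger RNA of 46 cell cycle and DNA replication genes was followed in the fetal lung of male mice at embryonic day E14.5. The genes were taken as a list of symbols with known roles in these processes, with no measured value in the rule. All 46 were found among the 57180 genes counted, and all 46 had enough counts to be among the 17276 genes tested. The study placed 16 poly(A) RNA libraries in 4 groups of 4. The strains were C57BL/6J (B6) and A/J, and the series title concerns how strain and an interrupted vitamin A signal before birth bear on airway hyperresponsiveness. Pregnant dams of the treated groups received BMS493, an inverse agonist that lowers the activity of all retinoic acid receptors, orally at 3.75 µg/g/day, beginning at E9.5 and ending at E14.5. Dams of the control groups received corn oil over the same days. The tissue is labelled lung, and no sorting of cells is described. Litters are not named in the labels, nor is it stated whether fetuses were pooled, so p-values measure only the spread between these libraries, which may in part be technical.

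Proliferating cells pass through G1, copy their DNA in S phase and divide in mitosis. D and E cyclins with their kinases release E2F factors in G1, and the inhibitors encoded by Cdkn1a (p21) and Cdkn1c (p57) hold these kinases back. Origins of replication are then licensed by Cdc6, Cdt1 and the MCM helicase, DNA is copied around the clamp encoded by Pcna, and CDK1 with A and B cyclins drives the chromosomes onto the spindle. Many S phase genes are known E2F targets, and many mitotic genes are known to be held silent in G1 through a promoter element called CHR, often beside CCAAT boxes. At this stage of gestation the lung bud branches and grows by proliferation of epithelium and mesenchyme, and retinoic acid is known to take part in lung formation.

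The promoters of 36 of the 46 genes were matched in a RefSeq table (GRCm38.p6), as 39 windows of 300 bases that run from 250 bases before to 50 bases after a transcript start. They were searched on both strands for CCAAT, for a CHR (TTTGAA or TTTAAA) and for an E2F core (TTCCCGC and its variants TTGGCGC and TTCGCGC, or else TTGCCGC). Letters of the E2F core were present in 13 of 17 promoters of the licensing and DNA synthesis genes (76.5%), in 3 of 18 promoters of the mitotic genes (16.7%) and in 9.57% of all 32851 promoters of the table. A CHR together with CCAAT was present in 15 of the 18 mitotic promoters (83.3%), in 5 of the 17 replication promoters (29.4%) and in 10.7% of all promoters. The 4 promoters of 3 G1 regulators held the letters of neither the E2F core nor CCAAT, and 1 of them held a CHR. TTTAAA reads the same on both strands, and TTGGCGC can share bases with CCAAT. A match is a description of these windows, not a binding site. The promoters shown are those of Hells and Chek1, which are replication genes, and of Kif11 and Ccnb2, which are mitotic genes. These genes are among those called between strains further on. Kif23, which held CCAAT and a CHR, and Ccne1, which held a CHR and no E2F core, were called too, both higher in A/J. Their promoters are not shown, no A/J sequence was compared, and a link of motifs to strain differences was not tested. Capitals mark the E2F core in Hells (chr19:38930740-38931039, plus strand) and Chek1 (chr9:36726609-36726908, minus strand), and CCAAT and the CHR on either strand in Kif11 (chr19:37376132-37376431, plus strand) and Ccnb2 (chr9:70421505-70421804, minus strand).
Hells: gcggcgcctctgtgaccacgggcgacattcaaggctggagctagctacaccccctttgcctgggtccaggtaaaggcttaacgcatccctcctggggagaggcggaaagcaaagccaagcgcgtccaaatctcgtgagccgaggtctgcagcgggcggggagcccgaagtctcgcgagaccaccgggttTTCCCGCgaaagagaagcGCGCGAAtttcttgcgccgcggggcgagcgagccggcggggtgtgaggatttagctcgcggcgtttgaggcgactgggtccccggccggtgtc
Chek1: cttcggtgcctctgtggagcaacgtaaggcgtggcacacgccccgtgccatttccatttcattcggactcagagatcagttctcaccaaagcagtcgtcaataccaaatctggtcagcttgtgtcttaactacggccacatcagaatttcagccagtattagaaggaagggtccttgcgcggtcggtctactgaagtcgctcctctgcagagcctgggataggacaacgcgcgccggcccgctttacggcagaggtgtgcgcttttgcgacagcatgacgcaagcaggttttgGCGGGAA
Kif11: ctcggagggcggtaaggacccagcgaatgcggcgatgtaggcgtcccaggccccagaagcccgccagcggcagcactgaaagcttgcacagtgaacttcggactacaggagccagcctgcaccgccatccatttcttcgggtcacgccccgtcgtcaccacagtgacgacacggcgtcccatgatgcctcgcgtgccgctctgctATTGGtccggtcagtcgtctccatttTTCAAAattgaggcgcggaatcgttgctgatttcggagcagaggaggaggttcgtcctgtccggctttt
Ccnb2: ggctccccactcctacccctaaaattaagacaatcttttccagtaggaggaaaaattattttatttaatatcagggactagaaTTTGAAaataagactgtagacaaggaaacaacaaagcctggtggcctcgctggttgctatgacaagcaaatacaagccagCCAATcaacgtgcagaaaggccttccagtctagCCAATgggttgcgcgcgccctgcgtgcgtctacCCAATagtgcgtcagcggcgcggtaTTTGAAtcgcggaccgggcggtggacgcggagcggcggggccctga
In Ccnb2 the CCAAT boxes begin 87, 54 and 21 bases before the start site, while in Hells the E2F cores begin 61 and 43 bases before it.

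Between 15207539 and 24146224 fragments per library were assigned to genes, and the 46 genes took 0.897% to 1.00% of them. Lung markers were present in every library: the summed level of Nkx2-1, Foxf1, Tbx4, Sox9, Sftpc and Epcam ran from 896 to 1939 CPM (counts scaled to library size). Thymus markers summed to at most 3.02 CPM, and Cd3e, Cd3g, Ptcra and Foxn1 had at most 3 counts in any library. Liver markers summed to at most 13.8 CPM. B6 BMS493 replicate 3 lay farthest from the other libraries of its group, both over all genes tested (root mean square log2 difference 0.493) and over the 46 genes (0.220). B6 BMS493 replicate 2 and A/J control replicate 4 also stood apart in ways that touch the 46 genes and are described with them. Library numbers in the labels put replicates 1 and 2 of each group among libraries 1 to 8 and replicates 3 and 4 among libraries 9 to 16, so this split does not coincide with strain or treatment.

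All 46 transcripts were present in all 16 libraries, and 45 of them had at least 631 counts in each. Top2a, the topoisomerase that untangles sister chromatids, had the highest mean level at 868 CPM, and Mki67, which encodes the proliferation antigen Ki-67, followed at 762 CPM. The exception at the low end was Cdkn1a, the p53-responsive inhibitor of cyclin-dependent kinases, with 3.96 CPM and 30 to 144 counts per library. Per kilobase of annotated exon, Cdc20, the activator of the anaphase-promoting complex, was highest at 104 CPM per kb in the count column used. This column leaves out part of the reads of some genes, Cdkn1c and Pcna among them, so the order of levels holds for this column only. The 6 subunits of the MCM helicase, which is loaded on DNA as a ring with 1 copy of each, lay between 37.7 CPM per kb (Mcm2) and 85.6 CPM per kb (Mcm4). Exon lengths count every annotated exon, so a gene with long alternative exons reads low on this scale.

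By role, the G1 regulators held both abundant and scarce transcripts on the scale per kilobase. The inhibitor Cdkn1c was at 85.3 CPM per kb and Cdkn1a at 1.11 CPM per kb, with Ccnd1 (52.8) and Ccnd2 (42.2) above Ccne1 (24.3), E2f1 (18.4) and Ccne2 (13.5). The loading factors Cdt1 (27.5 CPM per kb) and Cdc6 (12.6 CPM per kb) and the helicase activators Cdc45 (16.3 CPM per kb) and Gins2 (10.2 CPM per kb) all lay below each MCM subunit. Among the DNA synthesis genes, Uhrf1, which reads hemimethylated DNA behind the fork, was highest in this column at 83.7 CPM per kb and Chek1 lowest at 12.4 CPM per kb, while Pcna, at 69.7 CPM per kb, is counted only in part. The ribonucleotide reductase subunits were at 67.9 (Rrm2) and 34.2 (Rrm1) CPM per kb. The mitotic cyclins Ccnb2 (78.1 CPM per kb), Ccna2 (54.3) and Ccnb1 (51.7) lay above their kinase Cdk1 (40.1), and Plk1 (55.5), Aurkb (48.8) and Aurka (41.3), which are kinases of spindle and chromosome segregation, were of like size. Among the spindle genes the centromere proteins Cenpa (22.7 CPM per kb), Cenpe (19.1) and Cenpf (14.51) were low beside Ube2c (73.3), Tpx2 (59.1) and Bub1b (53.9).

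Replicates varied little. The SD of log2 CPM within groups had a median of 0.083 over the 46 genes, against 0.168 over all genes tested. It was lowest for Bub1b, a kinetochore checkpoint kinase (0.047), and highest for Cdkn1a (0.376), which had the fewest counts. The genes tested were not matched to the 46 in level, so the medians 0.083 and 0.168 do not compare genes of like abundance.

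**Figure D1:**
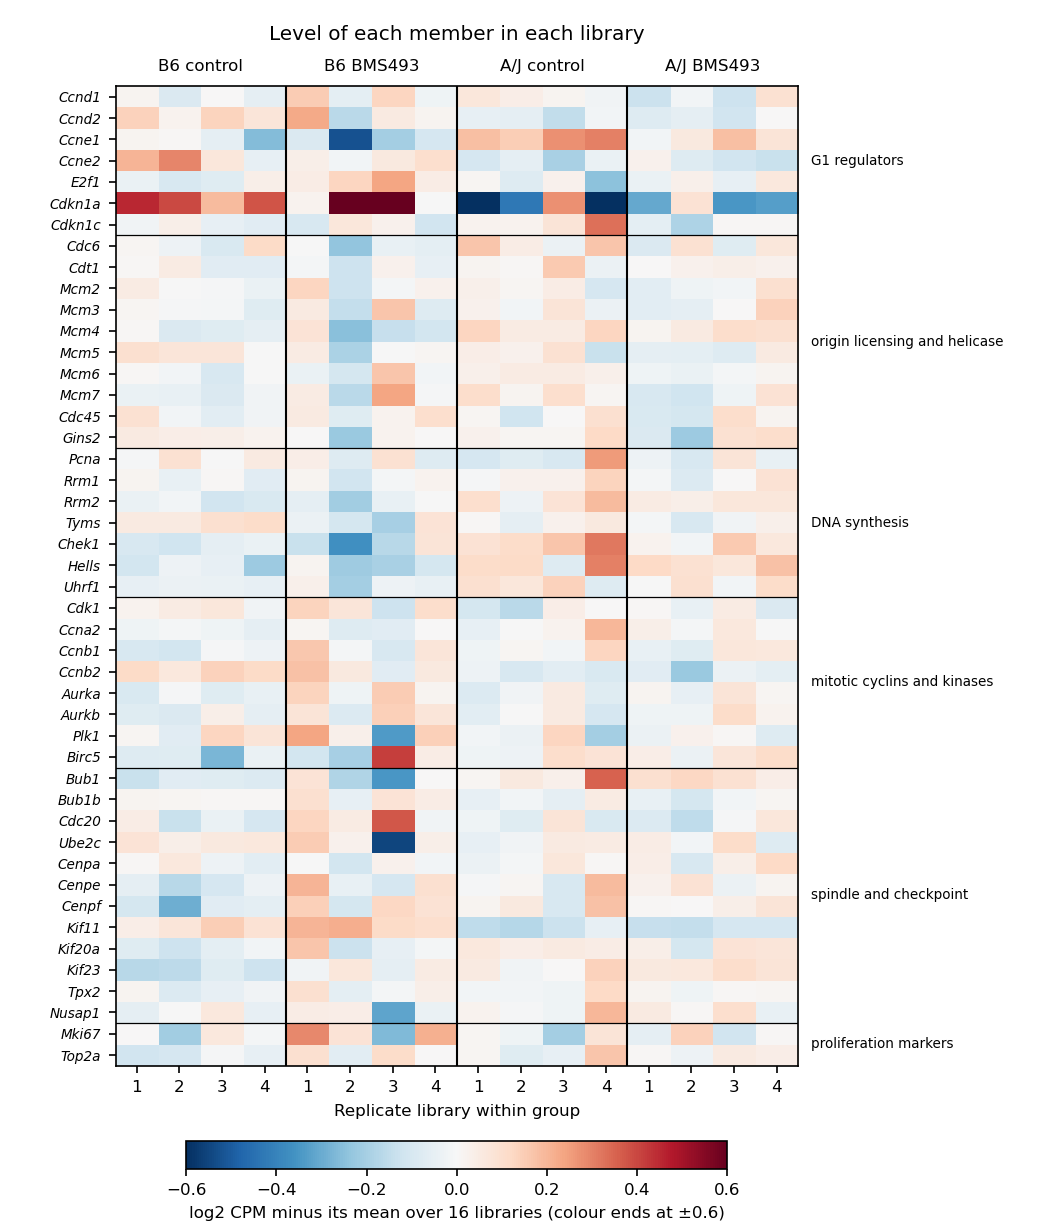
Level of the 46 genes (rows, grouped by role) in the 16 libraries (columns, by group and replicate), as log2 CPM minus the mean of the gene over 16 libraries. Most cells are near white: Cdkn1a is the row with the strongest contrast, and B6 BMS493 replicate 3 is the column that departs most from its group (root mean square 0.220).

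The first comparison asked whether BMS493 changed these genes in B6 lungs. It did not do so at the threshold used: 0 of the 46 genes were called in either direction at an adjusted p under 0.05, where 0.423% of all genes tested were (edgeR quasi-likelihood test, Benjamini-Hochberg adjustment over all genes). Their log2 ratios (BMS493 over control) ran from -0.15 to 0.19 with a median of 0.0041, and 24 of 46 lay above 0, against a median of 0.0070 over all genes tested. An unadjusted p under 0.05 was reached by 6 of the 46, a share of 13.04% beside 9.11% of all genes. By direction, 0.0752% of all genes were called higher and 0.347% lower. In tissue of mixed cells, fewer cells of a type and less RNA per cell cannot be told apart.

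Among the proliferation markers, Mki67 stood at 758, 655, 792 and 753 CPM in the B6 control libraries and at 925, 803, 630.1 and 879 CPM in the BMS493 libraries. The groups overlapped, because BMS493 replicate 3 was the lowest of all 8. The log2 ratio was 0.13 (SE 0.093, adjusted p = 0.716). Without BMS493 replicate 3, Mki67 had the lowest adjusted p of the 46 genes (0.232) and was still not called. Top2a averaged 827 ± 28.1 CPM in controls and 890.2 ± 49.9 CPM with BMS493 (SD, n = 4 each), with a log2 ratio of 0.11 (SE 0.059, adjusted p = 0.605).

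The G1 regulators in B6 were spread around 0. Ccne1, the cyclin E that starts S phase, stood at 65.0, 64.4, 61.8 and 53.6 CPM in controls and at 60.5, 44.6, 55.6 and 59.9 CPM with BMS493. These values overlapped, and replicate 2 of the BMS493 group was the lowest (log2 ratio -0.15, SE 0.083, adjusted p = 0.597). Within libraries 1 to 8 alone Ccne1 gave -0.30, and within libraries 9 to 16 it gave 0.0016. E2f1, which encodes the transcription factor that opens the S phase programme, moved from 56.2 ± 2.26 to 62.8 ± 4.08 CPM (SD, n = 4 each). Its 4 BMS493 libraries all lay above its 4 control libraries, but the log2 ratio of 0.16 was not called (SE 0.068, adjusted p = 0.475). The D cyclins, which couple growth signals to G1 kinases, gave 0.082 for Ccnd1 (SE 0.060, adjusted p = 0.724) and -0.052 for Ccnd2 (SE 0.064, adjusted p = 0.857) on the log2 scale. Cdkn1c averaged 170.4 ± 5.30 CPM in controls and 170.2 ± 10.6 CPM with BMS493, and Cdkn1a 4.78 ± 0.368 and 5.04 ± 1.49 CPM (SD, n = 4 each).

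Of the 17 genes of licensing and DNA synthesis, 6 had a log2 ratio above 0 in B6, where 51.9% of all genes tested did. Mcm2 was level, at 262 ± 6.79 CPM in controls and 263 ± 18.8 CPM with BMS493 (SD, n = 4 each). Pcna stood at 166, 178, 166 and 173 CPM in controls and at 172, 158, 177 and 158 CPM with BMS493, where 2 of the 4 treated libraries lay below every control and the other 2 among them (log2 ratio -0.039, SE 0.070, adjusted p = 0.907). Tyms, which makes thymidylate for DNA, was the lowest of the DNA synthesis genes at a log2 ratio of -0.14 (SE 0.059, adjusted p = 0.475). Gins2, a subunit of the active helicase, had no overlap between groups, with 42.2 to 43.1 CPM in controls and 35.6 to 42.1 CPM with BMS493, and was not called (-0.086 on the log2 scale). Its BMS493 replicate 2 lay far below the other 3 libraries. The other licensing genes lay between -0.091 (Mcm5) and 0.082 (Mcm7), with -0.084 for Cdc6 and -0.023 for Cdt1. Mcm7 stood at 338 CPM in BMS493 replicate 3, at 257 to 297 CPM in the rest of that group and at 271 to 283 CPM in controls. Among the DNA synthesis genes Rrm1 gave 0.00082, Rrm2 -0.011, Uhrf1 -0.016, Hells -0.023 and Chek1 -0.064.

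Of the 22 mitotic genes, counting Mki67 and Top2a, 15 lay above 0 in B6. Whether these genes differed from the replication genes was not tested. Cenpf, a kinetochore protein, had the lowest adjusted p of the 46 genes in B6, singled out after its values were seen. It stood at 208, 182, 213 and 214 CPM in controls and at 246, 208, 244 and 237 CPM with BMS493. The ranges overlapped through BMS493 replicate 2, and the log2 ratio of 0.19 (SE 0.066, 95% interval 0.058 to 0.33) had an adjusted p of 0.302. Cdc20 had the same fold change (0.19, SE 0.072, adjusted p = 0.362), with its highest value, 251 CPM, in replicate 3. Kif23, a kinesin of the central spindle, did not overlap between groups, at 126 to 134 CPM in controls and 136 to 148 CPM with BMS493, with a log2 ratio of 0.14 (SE 0.053, adjusted p = 0.363). E2f1, Gins2 and Kif23 were the 3 of 46 genes (6.52%) without overlap between the B6 groups, beside 4.71% of all genes tested. Cdk1, the kinase of mitotic entry, gave 0.020 (SE 0.061, adjusted p = 0.947), Ccnb1 gave 0.097 (SE 0.060, adjusted p = 0.667) and Ccna2 gave -0.0039 (SE 0.055, adjusted p = 0.989) on the log2 scale. The Aurora kinase genes Aurka (0.12) and Aurkb (0.098), the kinetochore motor gene Cenpe (0.13) and Birc5 (0.17) lay above 0, and Ube2c (-0.12), Nusap1 (-0.050) and Ccnb2 (-0.048) below. Bub1 (-0.011), Bub1b (0.034), Cenpa (-0.021), Tpx2 (0.049), Kif20a (0.065), Kif11 (0.075) and Plk1 (-0.0027) followed, and none of the mitotic genes was called. Several values rested on BMS493 replicate 3: without it Birc5 gave 0.024, Ube2c 0.0094, Nusap1 0.023, Ccnb2 -0.011, Cdc20 0.11, Aurkb 0.065, Bub1 0.058 and Plk1 0.098.

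**Figure D2:**
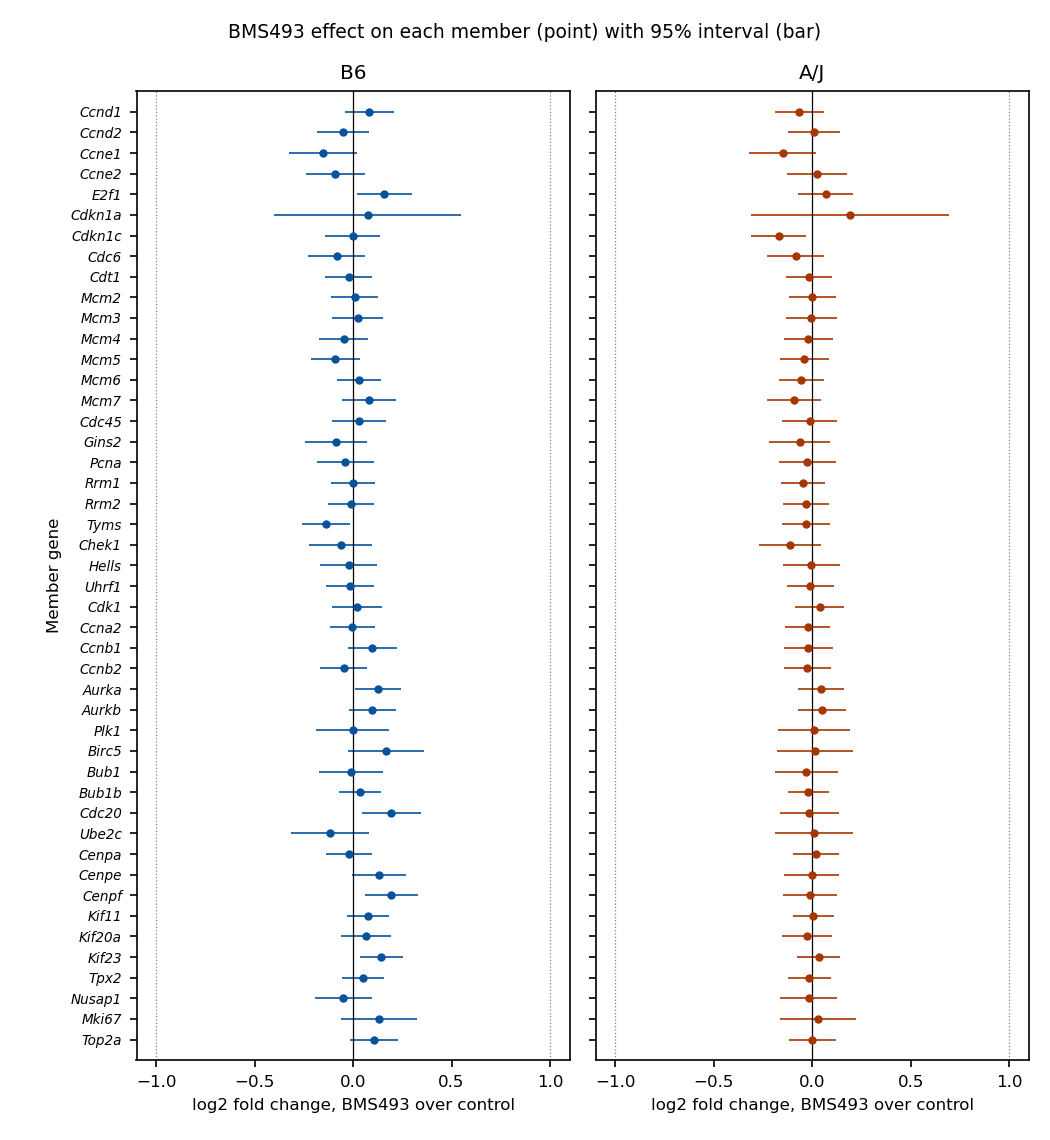
Log2 ratio of BMS493 against control for each of the 46 genes (point) with its 95% interval (bar) in B6 (left) and A/J (right), n = 4 libraries per group. The dotted lines mark a 2-fold change in either direction, and no interval reaches them; the widest belong to Cdkn1a, with -0.40 to 0.55 for B6 and -0.31 to 0.69 for A/J.

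The intervals show how large a change these data leave room for. Leaving out Cdkn1a, the 95% intervals of the other 45 genes in B6 ran from -0.33 (Ccne1) to 0.36 (Birc5) on the log2 scale, which is a fall of 20.2% to a rise of 28.3%. The upper end for Birc5 was 0.16 without BMS493 replicate 3, and the highest of the 45 was then 0.38 (Mki67), a rise of 29.95%. In A/J they ran from -0.32 (Ccne1) to 0.22 (Mki67). The median half-width was 0.13 in each strain. These intervals are per gene and are not adjusted for the number of genes.

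The second comparison asked the same in A/J. There 0 of the 46 genes were called either, beside 0.486% of all genes tested (0.0637% higher and 0.423% lower). Log2 ratios ran from -0.17 to 0.19 with a median of -0.015, against -0.0019 over all genes, and 15 of 46 lay above 0. An unadjusted p under 0.05 was found for 1 gene (2.17%, beside 6.23% of all genes). That gene was Cdkn1c, the imprinted inhibitor p57, at 176, 176, 183 and 218 CPM in controls and 167, 153, 175 and 174 CPM with BMS493. All 4 BMS493 libraries lay below the controls, by a log2 ratio of -0.17 (SE 0.067, adjusted p = 0.572), and control replicate 4 was the highest. Without that control library, or without BMS493 replicate 2, 0 of the 46 genes had an unadjusted p under 0.05. With the columns that count each strand on its own, Cdkn1c gave -0.11 and -0.072.

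With all libraries, Ccne1 had nearly the same fold change in A/J as in B6, though the B6 value moved between the library sets, as given above. It stood at 72.8, 71.0, 77.5 and 79.2 CPM in A/J controls and at 63.5, 66.7, 72.6 and 67.6 CPM with BMS493 (log2 ratio -0.15, SE 0.082, adjusted p = 0.876). The groups overlapped only through BMS493 replicate 3. Mcm6, a helicase subunit, was the other gene besides Cdkn1c without overlap in A/J, at 337 to 343 CPM in controls and 322 to 335 CPM with BMS493, and was not called (-0.056 on the log2 scale, SE 0.055). These 2 of 46 genes (4.35%) stand beside 4.87% of all genes tested.

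The genes most used as signs of proliferation differed little in A/J. Mki67 averaged 741 ± 60.6 CPM in controls and 757 ± 57.5 CPM with BMS493, and Top2a 879 ± 67.4 and 878 ± 23.2 CPM (SD, n = 4 each). Cdk1 gave a log2 ratio of 0.037, Ccnb1 -0.021, Ccna2 -0.024, Mcm2 0.00037, Pcna -0.025, Ccnd1 -0.067 and Ccnd2 0.0074, each with an SE between 0.055 and 0.070 and an adjusted p of 0.992 or more. The 12 spindle and checkpoint genes lay between -0.030 and 0.032. Of the 10 licensing and helicase genes, 1 was above 0, and of the 7 DNA synthesis genes none was, yet the lowest of these 17 values was only -0.11 (Chek1, adjusted p = 0.948).

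Averaging the effects of the strains narrowed the median half-width of the intervals to 0.090. Again 0 of 46 genes were called, beside 1.37% of all genes tested (0.278% higher and 1.09% lower), and 4 (8.70%) had an unadjusted p under 0.05, beside 10.8%. The lowest adjusted p was that of Ccne1 (log2 ratio -0.15, SE 0.058, adjusted p = 0.286), followed by E2f1 (0.11, SE 0.048, adjusted p = 0.371). All 7 DNA synthesis genes lay below 0, between -0.089 and -0.013. The difference of the effect between the strains, A/J minus B6, called 0 of the 46 genes too, beside 0.00579% of all genes tested. Cenpf (-0.21, SE 0.093) and Cdc20 (-0.21, SE 0.10) had an unadjusted p under 0.05 for the difference, 4.35% of the 46 beside 3.68% of all genes, with an adjusted p of 0.999 each.

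DESeq2 also called 0 of the 46 genes in each of these 4 comparisons, and so did the other alternative fits, including the 16 that each left out 1 library. In a simulation, 200 genes were given a 2-fold change, and the test found 78% of them for the B6 comparison and 78.5% for A/J. Shifts as small as those of the 46 genes were not simulated. These shares therefore do not show whether such shifts would be called.

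Single libraries moved the small shifts. In B6 BMS493 replicate 2, all 17 licensing and DNA synthesis genes lay below their mean over the 16 libraries, with a median deviation of -0.16 on the log2 scale, where the other 3 libraries of the group lay between -0.0094 and 0.018. The same library was the highest of all 16 for the 10 distal epithelium markers (median deviation 1.03) and the lowest for the 13 erythroid markers (-0.63). Without it, 33 of the 46 genes lay above 0 in B6, with a median log2 ratio of 0.031. In B6 BMS493 replicate 1, 19 of the 22 mitotic genes lay above their mean (median deviation 0.13).

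Replicate 3 of that group mixed high and low values: Ube2c, which tags mitotic cyclins for destruction, was at 129 CPM there against 193 to 211 CPM in the other 3 libraries, while Birc5 (survivin) was at 124 CPM against 80.5 to 95.4 CPM. In A/J control replicate 4, the 7 DNA synthesis genes had a median deviation of 0.19 and the distal epithelium markers one of -0.49. Without it, the median of the 46 genes in A/J turned from -0.015 to 0.012 and 25 of 46 lay above 0. The marker values are given because they moved with these libraries; their part in the values of the 46 genes was not tested. Over the groups, 0 of the 10 distal epithelium, 10 mesenchyme, 9 endothelium, 13 erythroid and 9 macrophage markers were called for BMS493 in either strain. Of the 6 lung markers, Foxf1, a transcription factor of lung mesenchyme, was called lower in B6 (log2 ratio -0.40, adjusted p = 0.0233). Without calls, the markers of some cells still lay mostly on one side of 0 in B6. Of the 10 distal epithelium markers 8 lay above 0 (median 0.38, 4 with an unadjusted p under 0.05), of the 9 macrophage markers 1 did (median -0.12), and of the 8 neural markers 1 did (median -0.37). In A/J, 8 of the 10 distal epithelium markers lay above 0 (median 0.11), 4 of the 9 macrophage markers (median -0.0084), 1 of the 8 neural markers (median -0.24) and 2 of the 9 endothelium markers (median -0.094). The neural marker Tubb3, a tubulin of neurons, was called lower in the mean of the strains (-1.03, adjusted p = 0.0292).

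**Figure D3:**
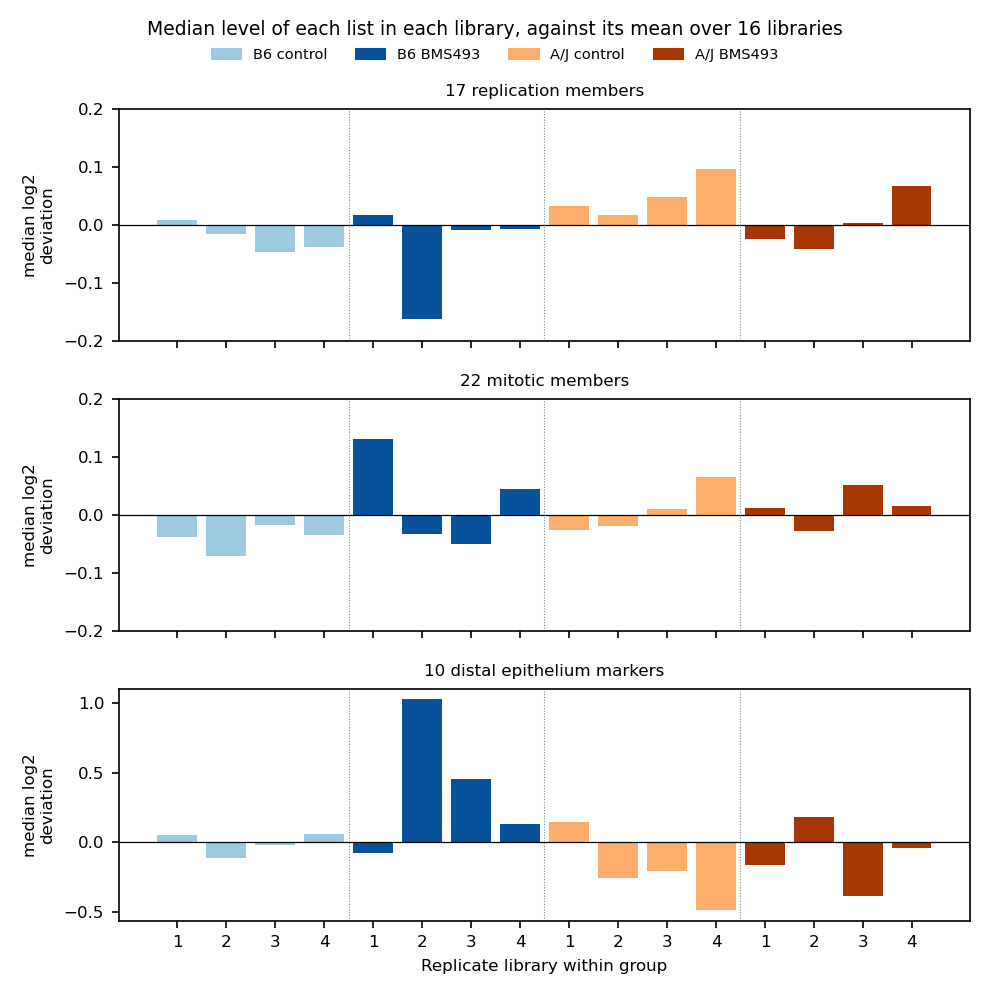
Median deviation of log2 CPM from the mean over 16 libraries, for 17 licensing and DNA synthesis genes (top), 22 mitotic genes (middle) and 10 distal epithelium markers (bottom, wider axis), 1 bar per library. B6 BMS493 replicate 2 is the lowest bar of the top panel (-0.16) and the highest of the bottom panel (1.03).

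Further genes of the same pathways were examined from lists of 133 genes found in the files, of which 132 were tested. With BMS493, 0 were called in B6, 0 in A/J and 1 in the mean of the strains, beside the shares of all genes given above. The gene was Cdkn2c, which encodes the inhibitor p18 of the cyclin D kinases and belongs to the 25 further G1 regulators tested. It stood at 23.1, 26.0, 21.7 and 23.5 CPM in B6 controls and at 26.6, 38.1, 35.5 and 25.6 CPM in B6 with BMS493. In A/J it stood at 23.2, 20.8, 24.4 and 15.997 CPM in controls and at 25.1, 28.9, 28.0 and 25.6 CPM with BMS493. It rose in the mean of the strains by a log2 ratio of 0.38 (SE 0.088, adjusted p = 0.0253), with 0.42 in B6 (adjusted p = 0.212) and 0.35 in A/J (adjusted p = 0.458). In A/J the treated libraries all lay above the controls, while in B6 the lowest treated library lay below the highest control.

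Leaving out 1 library ended the Cdkn2c call in 8 of 16 cases, namely B6 control replicate 1, 3 or 4, B6 BMS493 replicate 2 or 3, A/J control replicate 2, or A/J BMS493 replicate 2 or 3. The adjusted p was then 0.0526 to 0.0682, with the log2 ratio between 0.33 and 0.38. Within libraries 1 to 8 alone the value was 0.35 (adjusted p = 0.338), and within libraries 9 to 16 it was 0.42 (adjusted p = 0.486). With the first stranded column it was 0.31 and not called (adjusted p = 0.238). Of the other further lists, 0 of 18 licensing, 27 DNA synthesis, 49 mitosis and 13 p53 target genes were called in the mean of the strains. Their medians were -0.020, -0.016, 0.024 and 0.019 on the log2 scale, beside 0.0020 over all genes.

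The strains were then compared with each other. In control lungs 8 of the 46 genes were called (17.4%), beside 16.9% of all genes tested, so the list held about the background share. Ccne1, Chek1, Hells and Kif23 were higher in A/J (8.70%, beside 7.04% of all genes), and Cdkn1a, Ccne2, Kif11 and Ccnb2 were lower (8.70%, beside 9.84%). An unadjusted p under 0.05 was reached by 14 of 46 (30.4%, beside 29%). Except for Cdkn1a, none of the 8 differed by more than 0.29 on the log2 scale. The 46 genes had a median log2 ratio (A/J over B6) of 0.052, with 32 of 46 above 0, against 0.0081 over all genes. Leaving out 1 library gave medians of 0.038 to 0.066. Within libraries 1 to 8 the median was 0.016 (25 of 46 above 0), and within libraries 9 to 16 it was 0.082 (32 of 46). Over all genes it was then -0.0072 and 0.011. In 12 of the 46 genes the 4 A/J libraries did not overlap with the 4 B6 libraries (26.1%), beside 24.3% of all genes.

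In BMS493 lungs, which share no library with the controls, 3 of the 46 genes were called (6.52%), beside 20% of all genes tested. They were Ccne1 and Hells, higher in A/J (4.35%, beside 7.93%), and Kif11, lower (2.17%, beside 12%), and these 3 were called in the same direction in controls. An unadjusted p under 0.05 was reached by 10 of 46 (21.7%, beside 31.4%). Across all genes, 12.1% were called in both treatments. In 4 genes, Ccne1, Rrm2, Hells and Kif11, the BMS493 groups did not overlap (8.70%, beside 19.5%). The median of the 46 genes was -0.016, with 19 of 46 above 0. It turned to 0.018 without B6 BMS493 replicate 1 (27 of 46 above 0), to 0.0047 without A/J BMS493 replicate 2 (24 of 46) and to 0.017 within libraries 9 to 16 (25 of 46). It was -0.048 without B6 BMS493 replicate 2, -0.027 without A/J BMS493 replicate 4, -0.0053 without B6 BMS493 replicate 3 and -0.036 within libraries 1 to 8.

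**Figure D4:**
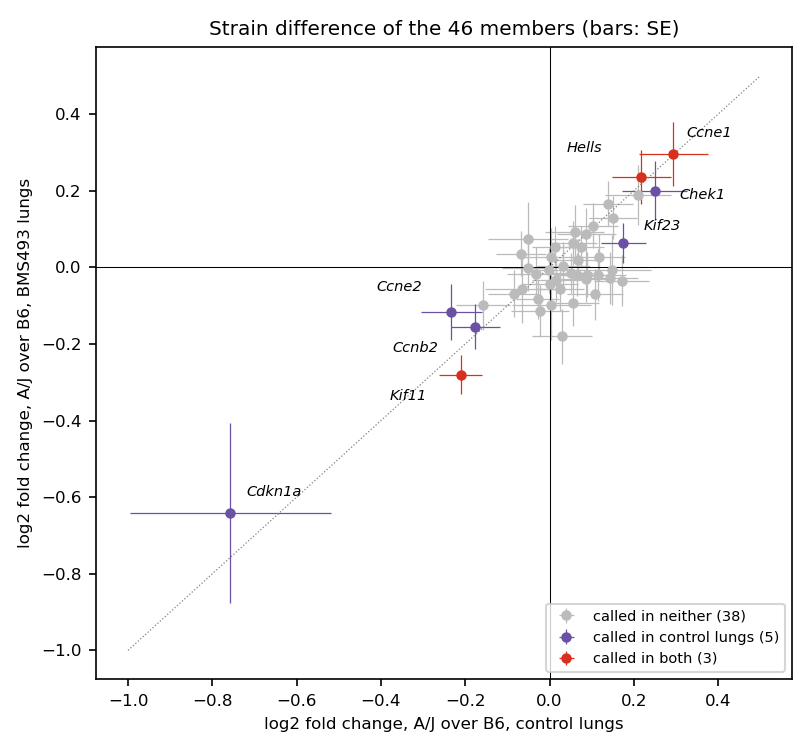
Log2 ratio of A/J against B6 for the 46 genes in control lungs (horizontal axis) and in BMS493 lungs (vertical axis), with SE as bars and a dotted line of equality. Ccne1, Hells and Kif11 were called in both, and Cdkn1a lies apart at -0.76 and -0.64.

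Kif11, the motor that separates the spindle poles, was the only 1 of the 46 genes in which all 8 A/J libraries lay on one side of all 8 B6 libraries (2.17%, beside 9.33% of all genes). In B6 it stood at 242, 247, 261 and 249.9 CPM in controls and at 271, 274, 255 and 253 CPM with BMS493. In A/J it stood at 212, 209, 215 and 228 CPM in controls and at 214, 213, 219.5 and 219.7 CPM with BMS493. The highest A/J library was thus below the lowest B6 library under both treatments. The log2 ratio was -0.21 in controls (SE 0.051, adjusted p = 0.00442) and -0.28 with BMS493 (SE 0.051, adjusted p = 0.000231). Both calls held in all 16 fits that left out 1 library. Within libraries 1 to 8 the values were -0.22 and -0.36, and within libraries 9 to 16 they were -0.20 and -0.21, where neither was called (adjusted p = 0.245 and 0.214). With the second stranded column the control call was lost (-0.16, adjusted p = 0.0713).

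Ccne1 was higher in A/J under both treatments. Its control values, given above, did not overlap: the lowest A/J library was at 71.0 CPM and the highest B6 library at 65.0 CPM. With BMS493 the ranges were 63.5 to 72.6 CPM in A/J and 44.6 to 60.5 CPM in B6. The log2 ratio was 0.29 in controls (SE 0.082, adjusted p = 0.0138) and 0.30 with BMS493 (SE 0.083, adjusted p = 0.0121). The control call was lost without B6 control replicate 4 (0.24, adjusted p = 0.0713), and within libraries 1 to 8 the value was 0.15 (adjusted p = 0.501), against 0.44 within libraries 9 to 16 (adjusted p = 0.0209). Leaving out replicate 2 of the B6 BMS493 group ended the BMS493 call (0.20, adjusted p = 0.0629), and so did leaving out replicate 3 of the A/J BMS493 group (0.26, adjusted p = 0.0511). The BMS493 values within the library sets were 0.31 and 0.28, neither of them called (adjusted p = 0.124 and 0.150), and with the first stranded column the value was 0.18 (adjusted p = 0.219).

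Ccne2, the second cyclin E, differed in the other direction. It stood at 54.3, 57.8, 49.4 and 45.5 CPM in B6 controls and at 43.9, 45.4, 41.3 and 45.9 CPM in A/J controls, and the highest A/J library passed the lowest B6 library. Its log2 ratio was -0.23 (SE 0.073, adjusted p = 0.0274) in controls and -0.12 (SE 0.073, adjusted p = 0.286) with BMS493. The control call was lost without B6 control replicate 1 or 2 or A/J control replicate 1 or 3, with an adjusted p of 0.0601 to 0.134. It was also lost within libraries 9 to 16 (-0.12, adjusted p = 0.632) and with both stranded columns (-0.24 and -0.18, adjusted p = 0.0533 and 0.1199), and the column used holds 75.4% of the stranded counts of Ccne2. The 2 cyclin E genes thus differed between the strains in opposite directions in control lungs. Summed levels were not tested.

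Hells and Chek1, whose E2F cores are printed above, were both higher in A/J. Hells encodes a helicase-like remodeller needed for DNA methylation, and stood at 126, 133, 132 and 117 CPM in B6 controls and at 147, 148, 129 and 168 CPM in A/J controls. A/J control replicate 3 overlapped with the B6 libraries. With BMS493 the ranges did not overlap, at 118 to 138 CPM in B6 and 143 to 154 CPM in A/J. Its log2 ratio was 0.22 in controls (SE 0.070, adjusted p = 0.0322) and 0.24 with BMS493 (SE 0.070, adjusted p = 0.0179). The Hells call in controls was lost without B6 control replicate 1 or 4 or A/J control replicate 1, 2 or 4 (adjusted p of 0.0554 to 0.138). With BMS493 it was lost without B6 BMS493 replicate 2 (0.0628) or A/J BMS493 replicate 4 (0.0582). Within each library set Hells was called under neither treatment, with values of 0.18 and 0.26 in controls and 0.19 and 0.27 with BMS493, and the first stranded column ended the control call (0.20, adjusted p = 0.0594).

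Chek1, the checkpoint kinase of the replication fork, stood at 53.5, 52.6, 55.0 and 55.7 CPM in B6 controls and at 60.6, 61.7, 64.1 and 71.2 CPM in A/J controls, without overlap. The log2 ratio was 0.25 (SE 0.077, adjusted p = 0.0256), and 0.20 with BMS493 (adjusted p = 0.0708). The control call was lost without B6 control replicate 1 or 2 or A/J control replicate 4 (adjusted p of 0.0608 to 0.0966). It was lost within each library set (0.20 and 0.29) and with the first stranded column (0.16, adjusted p = 0.241). Neither Hells nor Chek1 stood for the whole role: in controls, 2 of the 7 DNA synthesis genes and 0 of the 10 licensing and helicase genes were called (28.6% and 0%, beside 16.9% of all genes). The medians of these lists were 0.10 and 0.044 on the log2 scale.

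Kif23 and Ccnb2, 2 mitotic genes, differed in opposite directions in control lungs. Kif23 averaged 129 ± 3.75 CPM in B6 and 146 ± 7.39 CPM in A/J (SD, n = 4 each), without overlap, with a log2 ratio of 0.17 (SE 0.053, adjusted p = 0.0235). Ccnb2, a partner of CDK1, averaged 129 ± 2.78 CPM in B6 and 114 ± 2.38 CPM in A/J, also without overlap, with a log2 ratio of -0.18 (SE 0.058, adjusted p = 0.0365). Both calls were lost when some libraries were left out. That of Kif23 was lost without B6 control replicate 1, 2 or 4 or A/J control replicate 1 or 4 (adjusted p of 0.0519 to 0.0727). That of Ccnb2 was lost without B6 control replicate 1, 3 or 4, any 1 of the 4 A/J controls or A/J BMS493 replicate 1 (adjusted p of 0.0517 to 0.0907). Neither gene was called within a library set or with no filter on low counts (adjusted p = 0.103 for Kif23 and 0.0726 for Ccnb2), and a stranded column ended each call (the first for Kif23, 0.14, and the second for Ccnb2, -0.13). With BMS493, Kif23 gave 0.064 and Ccnb2 -0.15 (adjusted p = 0.0613), and neither was called.

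Cdkn1a had the largest difference of the 46 genes between strains and the fewest counts. It stood at 5.10, 4.92, 4.25 and 4.85 CPM in B6 controls and at 2.22, 2.77, 4.51 and 1.70 CPM in A/J controls, where replicate 3 overlapped with B6. The log2 ratio was -0.76 (SE 0.24, 95% interval -1.25 to -0.27, adjusted p = 0.0288). With BMS493 it was -0.64 (SE 0.24, adjusted p = 0.0560) and not called. The control call was lost without B6 control replicate 1, 2 or 4 or A/J control replicate 1, 2 or 4 (adjusted p of 0.0601 to 0.113). It was also lost within libraries 1 to 8 (-1.004, adjusted p = 0.0505), within libraries 9 to 16 (-0.52, adjusted p = 0.513) and with the second stranded column (-0.73, adjusted p = 0.0622). Without B6 BMS493 replicate 1 or 4, A/J BMS493 replicate 2 or A/J control replicate 3 or 4, the BMS493 difference was called (adjusted p of 0.0255 to 0.0427). It was also called with DESeq2 (adjusted p = 0.0401) and with no filter on low counts (adjusted p = 0.0204).

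**Figure D5:**
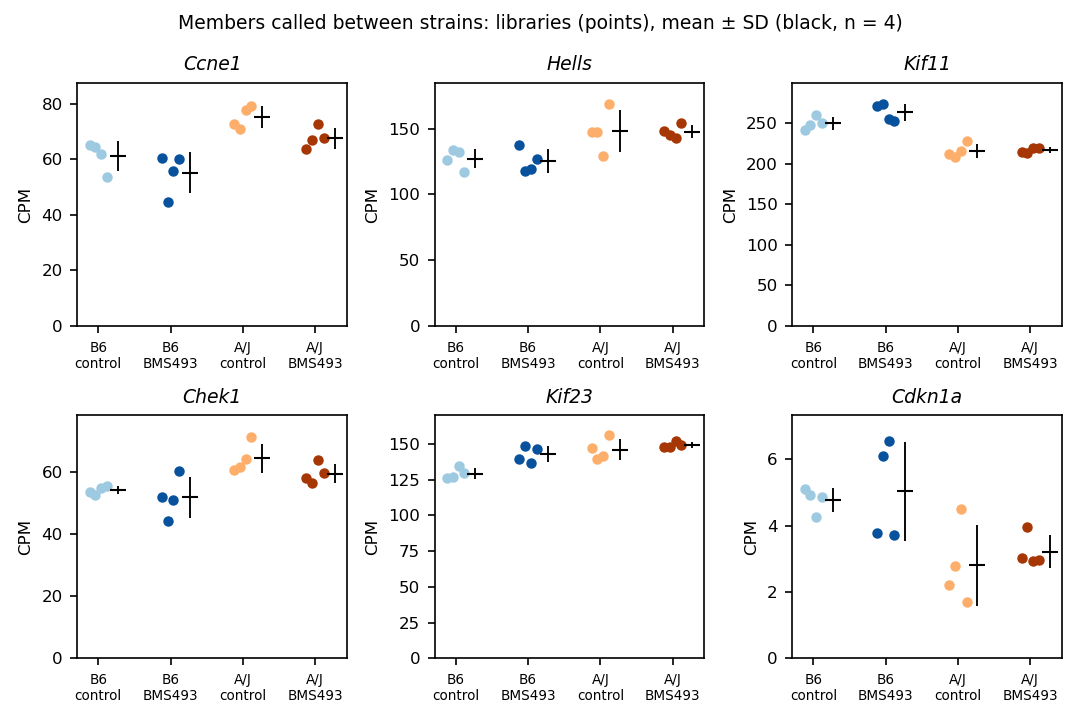
CPM of 6 of the 8 genes called between strains in control lungs, 1 point per library, with the mean and SD of each group in black (n = 4); all axes start at 0. For Kif11 all A/J points, up to 228 CPM, lie below all B6 points, from 242 CPM upward, while the Cdkn1a groups overlap.

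The markers of proliferation themselves were not called between strains. Mki67 gave log2 ratios of 0.0038 in controls (SE 0.093) and -0.097 with BMS493 (SE 0.093), and the latter was called only without B6 BMS493 replicate 3 (-0.20, adjusted p = 0.0467). Top2a gave 0.088 and -0.019, Cdk1 -0.085 and -0.069, Ccnb1 0.087 and -0.032, and Ccna2 0.074 and 0.054. Mcm2 gave -0.0012 and -0.0082, Pcna -0.031 and -0.017, Ccnd1 0.056 and -0.092, and Cdkn1c 0.14 and -0.027. Ccnd2, at -0.16 and -0.099, was lower in all 4 A/J than in all 4 B6 controls and not called (adjusted p = 0.0946), but was called without B6 BMS493 replicate 2 or 3 (adjusted p of 0.0494 in both) and with only the 8 control libraries (adjusted p = 0.0254).

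The counts of called genes moved in both directions when single libraries were left out. In controls the count of 8 rose to 9, 11 and 10 without B6 BMS493 replicate 1, 2 and 3, and fell to 2 without B6 control replicate 1, to 4 without B6 control replicate 2, and to 3 without B6 control replicate 4, A/J control replicate 1 or A/J control replicate 4. With BMS493 the count of 3 fell to 1 without B6 BMS493 replicate 2, and rose to 6 without B6 BMS493 replicate 1 or 4 or A/J control replicate 4, and to 5 without B6 BMS493 replicate 3.

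Markers of other cells differed between the strains beside these genes. The 9 endothelium markers summed to 1365 to 1468 CPM in B6 controls and to 976 to 1173 CPM in A/J controls, and 7 of 9 were called lower in A/J, beside 9.84% of all genes. With BMS493 the ranges were 1262 to 1568 CPM and 969.5 to 1147 CPM, and 9 of 9 were called lower, beside 12%. Of the 10 distal epithelium markers 2 were lower in controls and 3 with BMS493, of the 10 mesenchyme markers 3 were lower in each, with 1 higher with BMS493, and of the 13 erythroid markers 2 were higher in each. Of the 9 macrophage markers 1 was higher and 1 lower in controls and 3 higher and 2 lower with BMS493, and of the 8 neural markers 2 were higher and 2 lower in controls and 3 higher and 2 lower with BMS493. Their part in the strain differences of the cell cycle genes was not tested.

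Among the further pathway genes, single strain differences were larger than among the 46, but the share of genes called was below that of all genes. In controls 17 of 132 were called (12.9%, beside 16.9% of all genes), of which 7 had more RNA in A/J and 10 less. With BMS493 23 were called (17.4%, beside 20%), with 12 up and 11 down in A/J. Pttg1, which encodes securin, the guard of sister chromatid cohesion, stood at 14.6 to 15.98 CPM in B6 controls and at 45.6 to 57.3 CPM in A/J controls, with no overlap. It was higher in A/J by 1.73 in controls (SE 0.11, adjusted p = 2.07e-11) and by 1.66 with BMS493 (SE 0.11, adjusted p = 4.45e-11) on the log2 scale. Ttk, the spindle checkpoint kinase, was higher by 0.50 (adjusted p = 1.7e-05) and 0.45 (adjusted p = 8.1e-05). Orc1, the largest subunit of the origin recognition complex, was higher by 0.39 in controls (adjusted p = 0.0177), a call lost without A/J control replicate 2 or B6 control replicate 3 (0.0548 and 0.0560), within each library set (adjusted p = 0.220 and 0.211) and with the first stranded column (adjusted p = 0.0589). E2f5, a repressor of the E2F family, was higher by 0.39 with BMS493 (adjusted p = 0.0181), a call lost without A/J BMS493 replicate 1 or 3 or B6 BMS493 replicate 3 (0.0510 to 0.0595) and within libraries 9 to 16 (adjusted p = 0.335).

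On the other side, Ncapd2, a condensin subunit that compacts chromosomes, was lower in A/J. It stood at 474 to 498 CPM in B6 controls and at 258 to 275 CPM in A/J controls. Its log2 ratio was -0.87 in controls (SE 0.053, adjusted p = 2.72e-12) and -0.89 with BMS493 (SE 0.053, adjusted p = 1.83e-12). Cdca3, which promotes entry into mitosis, was lower with BMS493 by a log2 ratio of -0.60 (adjusted p = 1.71e-07). The p53 targets Perp, a junction protein, and Phlda3, an inhibitor of AKT, were lower too. Perp gave -0.93 in controls (adjusted p = 0.0179) and -1.27 with BMS493 (adjusted p = 0.00147), and Phlda3 gave -0.58 in controls (adjusted p = 0.000559). The control call of Perp was lost without A/J control replicate 4 (-0.82, adjusted p = 0.0694), within libraries 1 to 8 (-0.73, adjusted p = 0.429) and with the first stranded column (-0.90, adjusted p = 0.0669). The BMS493 call of Perp was lost within libraries 1 to 8 (adjusted p = 0.158), and the control call of Phlda3 within libraries 9 to 16 (adjusted p = 0.0675). By list, in controls and with BMS493, the calls were 4 and 3 of 25 further G1 regulators, 2 and 3 of 18 licensing genes, 1 and 4 of 27 DNA synthesis genes, 7 and 8 of 49 mitosis genes and 3 and 5 of 13 p53 targets. Against the background of 16.9% and 20%, every list but the p53 targets (23.1% and 38.5%) lay below it in both treatments. Whether sequence differences between the strains move reads of single genes was not tested.

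Some of the 46 levels are incomplete, because reads that fall where genes overlap on opposite strands were not given to either gene in the column used. In 10 of the 46 genes this column held under 90% of the counts of the stranded columns summed. The shares were 33.95% for Cdkn1c, 41.5% for Gins2, 51.6% for Kif20a and 56.5% for Pcna, and 73.1% to 88.8% for Ccna2, Ccne2, Ccnd1, Plk1, Cdkn1a and Ccnd2. Levels of these genes read low, and their stranded counts may hold reads of the partner gene, since the libraries carry no strand. In 13 genes over 10% of the 50-base windows of the transcripts also occur in another gene, read on either strand. The highest shares were 65.4% for Gins2, 25.2% for Kif20a and 24.9% for Cdkn1c. Such windows can lie in the same opposite-strand overlaps, or in another locus where reads could be placed, and these were not separated. Of the genes called between strains, Ccne2 at 14.4% is the only 1 above that limit.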

How the data were processed

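Poly(A) RNA of 16 fetal lung libraries was counted per gene by the authors. FastQC, cutadapt, STAR and the mouse build GRCm39 are named in the submitters' processing notes, while versions and the gene annotation are not given in the sources used here. Each deposited file holds STAR's counts for 57180 genes without strand and for either strand, and 23.1% to 28.3% of its fragments were assigned to no single gene and were left out, among them ambiguous (4.26% to 4.68%) and multimapping ones (2.81% to 4.06%). The first strand held 51.0% to 52.0% of stranded counts, so the column without strand was used. Symbols came from GENCODE M21 (51884 identifiers matched, 98.9% of counts), exon lengths and shared 50-base windows from its transcripts, and promoters from a RefSeq table.

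Counts were filtered with filterByExpr (17276 genes kept), scaled by TMM and fitted in 1 model of 4 groups with edgeR 4.0.16 (quasi-likelihood, robust, 12 residual degrees of freedom). Adjusted p-values are Benjamini-Hochberg over all genes tested, and a call is an adjusted p under 0.05. Intervals are 95%. The fit was tested on simulated data. Alternatives were DESeq2 1.42.0, other scaling, filters, strands and library sets, a block by replicate number, and leaving out each library.

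The members and lists were chosen with earlier results of these data known. Values were to be given for 12 fixed genes, for every member called for BMS493, and for the 5 highest and 5 lowest members called in each strain comparison. Among pathway genes the rule took those called for BMS493 and the 3 highest and 3 lowest strain calls. Other genes named in the report were chosen after their values were seen.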

Additional observations from a re-analysis of the deposited data

Results flagged for a closer look

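In 6 of the 184 groups of 4 libraries (46 genes in 4 groups), the gap between an extreme library and its nearest neighbour, as a share of the range of the group, passed Dixon's 95% critical value. Chance flags about 1 in 20 groups. A/J control replicate 4 was the high library in 4 of the 6. There Pcna, the replication clamp, was at 199 CPM against 155 to 159 CPM (gap share 0.927). Tpx2, a spindle assembly factor, was at 299.9 CPM against 271 to 273 CPM (0.948). Bub1, a kinetochore kinase, was at 174 CPM against 138 to 142 CPM (0.880), and Gins2 at 45.2 CPM against 41.8 to 42.2 CPM (0.870). These genes belong to replication and to mitosis.

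The other 2 were single cases. Gins2 was low in B6 BMS493 replicate 2, at 35.6 CPM against 41.6 to 42.1 CPM (0.914), the library in which all 17 licensing and DNA synthesis genes lay below their mean. Cdkn1a was high in A/J BMS493 replicate 2, at 3.96 CPM against 2.93 to 3.01 CPM (0.918).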

How the results depend on the processing

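No BMS493 comparison called any of the 46 genes under the alternatives run. Among 48 values of named genes that were not called for BMS493, 0 of 1272 alternative values were called and 122 changed sign. Over all comparisons, 69 values were not called, and 12 of their 1839 alternative values were called, all in strain comparisons (Cdkn1a, Ccnd2 and Mki67), while 165 changed sign. The 24 called values kept their sign in all 647 alternative values, and 557 of these were still called.

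The 8 genes called between strains in controls became 13 with only the 8 libraries compared, 2 with libraries 1 to 8 alone, 1 with libraries 9 to 16 alone, and 4 and 5 with the counts of either strand. Leaving out 1 library gave 2 to 11. The 3 called with BMS493 became 6 with DESeq2, 5 with no filter, 6 with the replicate block and 0 with libraries 9 to 16 alone, and leaving out 1 library gave 1 to 6. The cause of these shifts was not tested, except that the library sets hold fewer samples. Whether replicate numbers pair the libraries was not tested. Same-numbered libraries of different groups correlated from -0.147 to 0.148 (median -0.0089), and 3 of 24 pairs were above 0.1. Other-numbered libraries of different groups correlated from -0.138 to 0.177 (median 0.0047), and 1 of 72 pairs was above 0.1. Of the 16 libraries, 7 correlated best with a library of their own number. With the replicate block the controls again gave 8 calls, beside 17.2% of all genes, and the BMS493 comparisons 0. Cdkn1a was then called between strains with BMS493 (adjusted p = 0.0471). Depth limits Cdkn1a most, which had as few as 30 counts in a library.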

Other observations

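The summed level of the genes overlapped between all 4 groups. The 46 genes together stood at 9136 to 9425 CPM in B6 controls, 8999.6 to 10106 CPM in B6 with BMS493, 9374 to 9931 CPM in A/J controls and 9312 to 9707 CPM in A/J with BMS493. The B6 BMS493 libraries had the widest range, and it covered those of the other 3 groups. The 7 DNA synthesis genes summed to 1337 to 1369 CPM in B6 controls and to 1407 to 1511 CPM in A/J controls, which did not overlap. With BMS493 the sums were 1235 to 1388 CPM in B6 and 1382 to 1462 CPM in A/J, which overlapped. In controls the sums of every other role list overlapped between the strains. Of all single genes tested, 24.3% did not overlap in controls. A sum is led by its most abundant members and was not tested.

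Fen1, which trims the flaps of lagging-strand DNA and belongs to the further DNA synthesis genes, was almost absent from the counts used, at 0.25 to 2.00 CPM. The column without strand held 231 fragments over all libraries, against 34809 in the stranded columns summed, a share of 0.664%. In its transcripts 76.7% of 50-base windows also occur in another gene, read on either strand. Its strain and treatment values therefore describe a small remainder of its reads.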
